A study of Mus musculus with 4 samples.

Results

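The genes described here are 34 genes of the epithelia that line and secrete into the fluid spaces of the brain. They fall into 18 genes of the choroid plexus, 14 genes of motile cilia and 2 genes for proteins secreted by ependymal cells. A member was taken from the array when the accession of a probe belonged to its gene, and no measured value entered that step. The list of genes itself was drawn up with earlier results of these data known. Of the 34 genes, 29 had a probe (16, 11 and 2 of the respective groups), with 39 probes in all, among 33269 genes and unnamed transcripts on 41174 probes. Kcnj13, Slc4a5, Ccdc153, Tmem212 and Ak7 were not matched to a probe through an accession and are not analysed here. All 29 genes were measured in both comparisons, and 38 of the 39 probes were well above background in every channel. The exception is the dimmest probe of Dnah5.

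Whole-brain RNA was compared on 4 two-colour arrays. SAMP8 is a senescence-accelerated mouse strain with early memory deficits, and SAMR1 is the resistant strain used beside it. The labels give both an AKR/J background, with outbreeding to an unidentified line suspected. SAMP8 mice ate either a control diet with low safflower oil (LSO) or the same kind of powder diet supplemented with an extract of minke whale red meat (WME), and SAMR1 mice ate LSO only. The mice arrived at 6 weeks of age, began the diets at 24 weeks, stayed on them for 26 weeks, were tested for behaviour over 8 days at 49 weeks, and were killed at 50 weeks. The diet pair of RNAs (SAMP8 WME, SAMP8 LSO) was hybridised on arrays 1 and 2 and the strain pair (SAMP8 LSO, SAMR1 LSO) on arrays 3 and 4, with the dyes exchanged on the second array of a pair. The number of mice behind each RNA, their sex and any pooling are not given in the sources used here. With 1 RNA per group there is no replicate check on any difference, and no test between groups was possible. The error printed with each mean log2 ratio is the SD over both dye orientations (2 arrays), which is technical.

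The choroid plexus is a folded epithelium in the ventricles that secretes cerebrospinal fluid. Ion pumps and channels move ions across it, carbonic anhydrases supply bicarbonate, and water follows through aquaporin 1. The cells also secrete transthyretin and other proteins into the fluid. Ependymal cells line the ventricles and carry tufts of motile cilia that beat the fluid along. A motile cilium is built on an axoneme of microtubule doublets with dynein arms, radial spokes and a central pair, and its genes are switched on largely by FOXJ1 and by RFX factors, which bind the X-box. In whole-brain RNA, fewer cells of such a type and less RNA per cell cannot be told apart.

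Promoter windows from RefSeq (GRCm38.p6), running from 250 bases before to 50 bases after an annotated start, were found for 25 of the 34 members. They are shown because motile cilia genes and choroid plexus genes held one motif, which the choice of members did not use, at different shares. The letters GTTGCC, a core part of the X-box, occurred on either strand in the windows of 9 of 12 motile cilia genes and of 4 of 12 choroid plexus genes. They occurred in 24 of 53 and 8 of 43 genes of the wider motile cilia and choroid plexus lists used below, which are lower shares. Over all promoters they occurred in 12.5% of 32851 windows, and over the members in 64.3% of the 14 motile cilia windows and 26.3% of the 19 choroid plexus windows. In the segments printed here, each 30 bases long and written 5′ to 3′ on the strand of the gene, the capitals mark GTTGCC or its reverse complement GGCAAC.
Dynlrb2, chr8:116504952-116504981, plus strand: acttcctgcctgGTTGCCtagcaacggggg
Mlf1, chr3:67373980-67374009, plus strand: gtgtttacagagGTTGCCatagcagccgag
Spag6, chr2:18698973-18699002, plus strand: cgattccgactgGTTGCCcaggagtgtggg
Pifo, chr3:106001492-106001521, minus strand: ttccgttcccttGGCAACgtagtacacaga
Tekt1, chr11:72361880-72361909, minus strand: tgcgtccgtccgGTTGCCatagagaccgca
Tekt4, chr17:25471586-25471615, plus strand: caatgttccttaGGCAACcaggaaccttgc
Morn2, chr17:80289996-80290025, plus strand: gcaggcgggcctGGCAACcccgaacccgcg
Kcne2, chr16:92292268-92292297, plus strand: cgacgtcacacaGGCAACtccgtgccccgc
Aqp1, chr6:55336176-55336205, plus strand: attagagcaacgGTTGCCtcctgcctcctt

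The first capital lay 51 bases before the start in Dynlrb2, 105 in Mlf1, 37 in Spag6, 12 in Pifo and 15 in Tekt1. In Tekt4 it lay 8 bases after the start. In Morn2, Kcne2 and Aqp1 it lay farther upstream, at 204, 109 and 111 bases before it. Tekt1 held a second match on the other strand, 35 bases before its start. Hydin and Ccdc153 completed the 9 motile cilia genes, and Otx2 and Steap1 the 4 choroid plexus genes. The forkhead letters GTAAACA were in the windows of 2 of 12 motile cilia genes, Ak7 and Mlf1, and of 1 choroid plexus gene, Prlr. Over all genes with a window the share was 4.05%. The OTX letters TAATCC were in 2 of 12 genes of either group (Ace and Otx2, Mlf1 and Pifo), against 8.14% of all genes. Matches to different letters did not overlap in any member window, and a match describes the sequence only.

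The first comparison set SAMP8 against SAMR1, both on the LSO diet. Most members of both groups were lower in SAMP8, by small amounts: 12 of 16 choroid plexus genes and 9 of 11 motile cilia genes lay below 0 on both arrays. Of all measured genes, 26.7% did so, and 23.9% lay above 0 on both arrays. A single member fell by at least 1.5-fold on both arrays, the rule for a call: Morn2, 2.88-fold lower in SAMP8. Of the 26937 measured genes and transcripts, 0.494% were called lower and 0.969% higher. Rsph1 and Rarres2 were the members above 0 on both arrays.

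**Figure D1:**
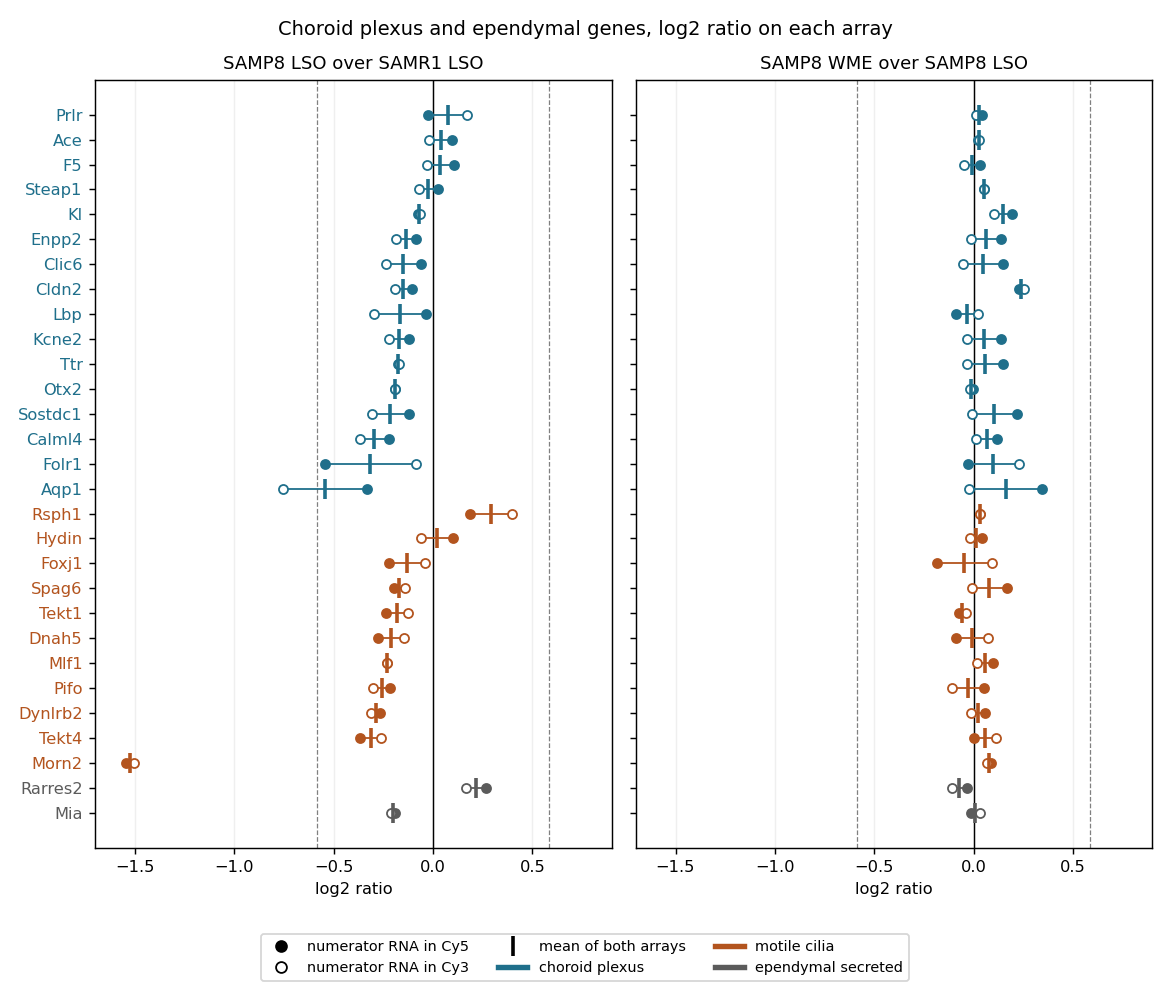
Log2 ratio of each measured member on each array, with the strain comparison (SAMP8 LSO over SAMR1 LSO) on the left and the diet comparison (SAMP8 WME over SAMP8 LSO) on the right. Filled and open circles are the dye orientations, ticks are their means, and dashed lines mark 1.5-fold. Morn2 lies at −1.52 in the strain comparison, outside the dashed line, and no member lies outside it in the diet comparison.

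The choroid plexus genes had a median log2 ratio of −0.157 in SAMP8 over SAMR1 (−0.098 on array 3 and −0.188 on array 4), against −0.0067 over all measured genes. None of the 16 was above 0 on both arrays, and 4 changed sign between them. The dye effect of a gene should be alike in the diet pair and the strain pair, and over 26390 genes its disagreement gave a technical SD of 0.049 for a mean of both orientations. Beyond 2 such SDs (0.098), 11 of the 16 genes were lower and 0 were higher, where 16% and 14.7% of all genes were. The sum of the normalized signals of the 16 genes was 51185 to 53925 in SAMP8 and 58510 to 58641 in SAMR1. Most of this sum is the signal of 1 gene, Enpp2, at a mean log2 intensity of 15.0, against 12.43 for Ttr, the next brightest.

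Ttr, the thyroxine and retinol carrier transthyretin, had normalized log2 intensities of 12.42 in SAMP8 and 12.60 in SAMR1 on array 3, and of 12.32 and 12.50 on array 4. The ratios of the arrays nearly coincided, with a mean of −0.17 ± 0.0029, or 1.13-fold lower in SAMP8. Enpp2, autotaxin, which makes lysophosphatidic acid and is also known in oligodendrocytes, had a log2 ratio of −0.14 ± 0.07 (14.99 against 15.08 on array 3, and 14.90 against 15.09 on array 4). Sostdc1, a secreted inhibitor of BMP and Wnt signalling, stood at −0.21 ± 0.13, and Lbp, the lipopolysaccharide-binding protein, at −0.16 ± 0.19. F5, coagulation factor V, lay on different sides of 0 on its arrays (0.11 and −0.03). None of these genes reached the 1.5-fold rule.

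The genes of ion and water transport lay below 0 on both arrays in 3 of 3 cases. Aqp1, the water channel of the apical membrane, showed log2 levels of 10.50 in SAMP8 and 10.84 in SAMR1 on array 3, and of 10.19 and 10.95 on array 4. Both arrays had the SAMP8 RNA lower, but by different amounts, −0.33 and −0.76, so the mean of −0.55 ± 0.30 (1.46-fold lower) missed the call on array 3. Kcne2, a potassium channel subunit, had log2 levels of 10.93 against 11.05 on array 3 and 10.84 against 11.05 on array 4, a ratio of −0.17 ± 0.07. Clic6, of the chloride intracellular channel family, had a ratio of −0.15 ± 0.12 with its brighter probe. Its second probe gave −0.23 and 0.04.

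The receptors were less uniform. Folr1, the folate receptor that carries folate into the fluid, had log2 levels of 10.66 in SAMP8 and 11.20 in SAMR1 on array 3, and of 10.98 and 11.06 on array 4. The difference was thus −0.54 with SAMP8 in Cy5 and −0.09 with SAMP8 in Cy3, a mean of −0.32 ± 0.32. A second, dimmer Folr1 probe gave −0.14 ± 0.04, below 0 on both arrays. Kl, which encodes the FGF23 co-receptor and ageing-related protein Klotho, had a ratio of −0.07 ± 0.01 (10.87 against 10.95, and 10.90 against 10.96). That is smaller than 0.098 despite its narrow spread. Prlr, the prolactin receptor, stood at −0.02 and 0.17.

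Among the other choroid plexus genes, Otx2, the transcription factor that specifies and maintains this epithelium, was measured by 10 spots of 1 probe on every array. Its log2 levels were 8.77 in SAMP8 and 8.96 in SAMR1 on array 3, and 8.68 and 8.87 on array 4. The ratio was −0.19 ± 0.0011, and the spots of array 3 ranged from −0.28 to −0.089 and those of array 4 from −0.23 to −0.15, so every spot lay below 0. Calml4, a calmodulin-like protein of the brush border, had log2 levels of 9.78 against 10.01 and of 9.59 against 9.95, a ratio of −0.30 ± 0.10. Cldn2, the claudin of leaky, water-permeable tight junctions, had a ratio of −0.15 ± 0.06. The surface enzymes Ace, which makes angiotensin II, and Steap1, of a metalloreductase family, lay at 0.04 ± 0.08 and −0.02 ± 0.07. Their second probes gave −0.01 ± 0.26 and −0.01 ± 0.09, so neither gene showed a direction.

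**Figure D2:**
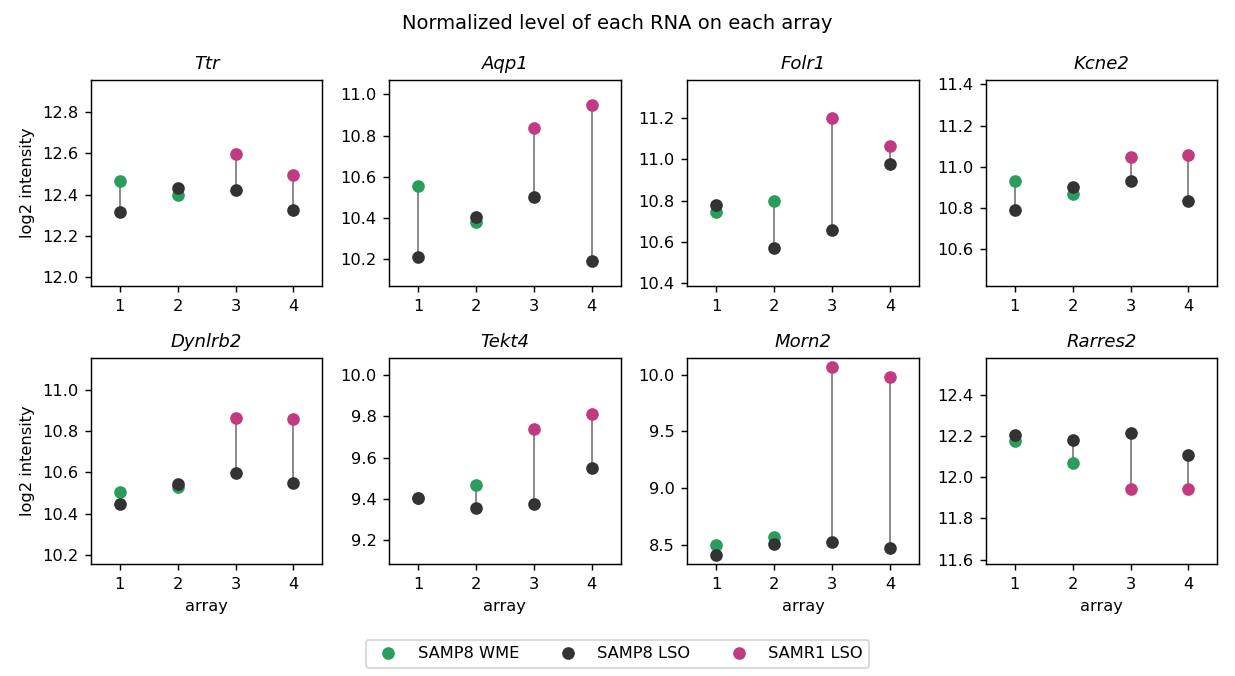
Normalized log2 intensity of 8 members in both RNAs of each array (arrays 1 and 2, SAMP8 WME and SAMP8 LSO; arrays 3 and 4, SAMP8 LSO and SAMR1 LSO), with a line joining the RNAs of an array. The vertical scale differs between genes. The genes, picked for display, are Ttr, Aqp1, Folr1, Kcne2, Dynlrb2, Tekt4, Morn2 and Rarres2. On arrays 3 and 4 SAMR1 is the higher RNA for 7 of the 8 genes and the lower one for Rarres2. The gap is widest for Morn2 (10.06 against 8.52 on array 3). Of all 29 measured members, 22 lay below 0 and 2 above 0 on both strain arrays, against 26.7% and 23.9% of all measured genes.

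The motile cilia genes had a median log2 ratio of −0.210 (−0.234 on array 3 and −0.144 on array 4). Of the 11 genes, 9 were below 0 on both arrays, Rsph1 was above 0 on both, and Hydin changed sign. The same 9 were lower beyond 0.098. Without Morn2 the median was −0.196, with 8 of 10 genes below 0 on both arrays. The summed signal of the 11 genes, with Morn2 included, was 6400 to 6532 in SAMP8 and 7832 to 8245 in SAMR1. Morn2 makes up a large part of that gap, and no sum was made without it.

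Morn2, which encodes a small protein of MORN repeats and is expressed in ciliated cells and testis, had log2 levels of 8.52 in SAMP8 and 10.06 in SAMR1 on array 3. On array 4 they were 8.47 and 9.98. Its log2 ratio was −1.52 ± 0.03, a level 65.2% lower in SAMP8, and −1.75 from the processed signals of the scanner software. The SAMP8 LSO RNA read 8.41 and 8.50 on the diet arrays, close to its levels on arrays 3 and 4. Only 1 probe represents the gene, and whether a sequence variant lies under it was not tested.

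Foxj1, the transcription factor that drives the motile cilia programme, had log2 levels of 9.60 against 9.82 on array 3 and of 9.63 against 9.67 on array 4. Its ratio of −0.13 ± 0.13 was below 0 on both arrays, but by only −0.04 on array 4. Of the dynein genes, Dynlrb2, a dynein light chain, had log2 levels of 10.60 in SAMP8 and 10.86 in SAMR1 on array 3, and of 10.55 and 10.86 on array 4. The ratio of −0.29 ± 0.03 (1.22-fold lower) was matched in sign by a second probe at −0.31 ± 0.25. Dnah5, an outer-arm dynein heavy chain, gave −0.21 ± 0.09 with its brightest probe (−0.323 from the processed signals) and 0.14 ± 0.17 with the next. Its dimmest probe, not well above background, gave −0.06 ± 0.08. The probes of Dnah5 therefore disagree in direction.

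The tektins, filament proteins inside the doublet microtubules, were both lower. Tekt4 had log2 levels of 9.37 against 9.74 on array 3 and of 9.55 against 9.81 on array 4, a ratio of −0.31 ± 0.07. Tekt1 stood at −0.18 ± 0.08, and its second probe at −0.22 and 0.01. In the spoke and central-pair group the directions were mixed. Rsph1, a radial spoke head protein, was higher in SAMP8 on both arrays (7.95 against 7.76, and 7.90 against 7.51), a ratio of 0.29 ± 0.15 or 1.22-fold (0.470 from the processed signals). Hydin, of the central pair, lay at 0.10 and −0.06. Spag6, also of the central pair, stood at −0.17 ± 0.04, but it has a close paralog, Spag6l, that its probe may not separate.

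Mlf1 and Pifo, genes of ciliated cells, had ratios of −0.23 ± 0.00039 and −0.26 ± 0.06. Of the 9 motile cilia genes with GTTGCC in a promoter window, 8 had a probe, and 7 of these lay below 0 on both arrays, with Hydin the exception. Dnah5, the measured motile cilia gene with a window but without these letters, was below 0 as well with its brightest probe. The secreted ependymal genes differed from each other. Mia, a small secreted protein, was measured by 3 probes at −0.20 ± 0.02, −0.17 ± 0.01 and −0.19 ± 0.01, all below 0 on both arrays. Rarres2, the chemoattractant chemerin, was higher in SAMP8 (12.21 against 11.95, and 12.11 against 11.94), a ratio of 0.22 ± 0.07.

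**Figure D3:**
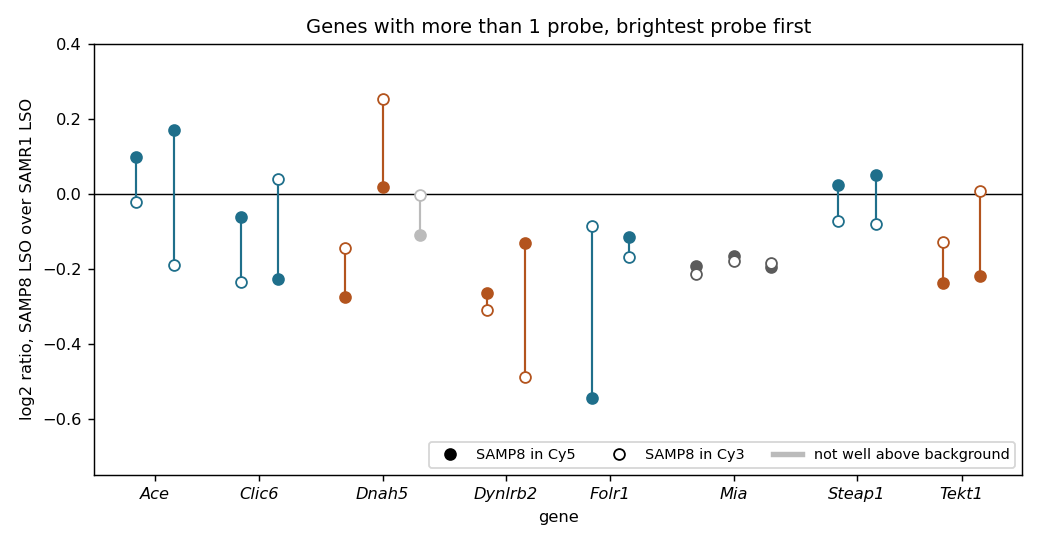
Strain log2 ratio (SAMP8 LSO over SAMR1 LSO) of every probe of the 8 members with more than 1 probe, the brightest probe first. Filled circles have SAMP8 in Cy5 and open circles have SAMP8 in Cy3. The 3 probes of Mia lie between −0.21 and −0.17, while the first 2 probes of Dnah5 lie on different sides of 0.

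Choroid plexus and motile cilia genes were then set against each other. The choroid plexus median was higher by 0.053 ± 0.127 (SD, 2 arrays), and the difference was 0.136 on array 3 and −0.044 on array 4. The sign thus changed with the dye orientation, as it did in the diet pair (0.087 on array 1 and −0.016 on array 2). The SD of 0.127 includes any dye effect, which largely cancels when both orientations are averaged. The precision of the averaged difference was not estimated, so whether the medians of the groups differ was not tested. At 1.2-fold on both arrays, 1 choroid plexus gene, Aqp1, and 2 motile cilia genes, Morn2 and Dynlrb2, were lower, where 1.72% of all genes were lower by that rule and 2.81% higher. The motile cilia ratios ran from −1.52 to 0.29 and the choroid plexus ratios from −0.55 to 0.07.

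Wider lists, chosen for known roles and not for values, though with earlier results of these data known, differed from the members. Of 47 further choroid plexus genes measured, 17 were above 0 (36.2%) and 13 below 0 (27.7%) on both arrays, with a median of −0.011. The shares over all measured genes were 23.9% and 26.7%. None of the 47 was called. The ratios largest in size were 0.62 ± 0.07 for Slc13a4, a sulfate transporter also known in the leptomeninges, −0.52 ± 0.05 for Slco1c1, a thyroxine transporter also known in brain capillaries, and 0.46 ± 0.07 for Cp, the ferroxidase ceruloplasmin. By role, 7 of 17 transporters and channels were above 0 on both arrays and 5 below. The carbonic anhydrases Car2, Car12 and Car14, which supply bicarbonate for secretion, had ratios of −0.32 ± 0.20, −0.16 ± 0.17 and −0.10 ± 0.16. Of 10 genes for secreted and matrix proteins, 5 were above 0 on both arrays and 2 below.

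Of 33 further motile cilia genes measured, 17 were below 0 on both arrays (51.5%, against 26.7% of all measured genes). Above 0 on both were 2, Drc1 and Wdr78, and the median was −0.045. Drc1, of the nexin-dynein regulatory complex, was called higher in SAMP8, at 0.73 and 0.67 on its arrays (0.70 ± 0.04, 1.62-fold). Wdr63, an inner-arm dynein gene, went the other way and just missed the call, at −0.58 ± 0.00039 (1.498-fold lower) with its brighter probe and −0.27 ± 0.26 with its other probe. Of 6 factors that assemble dynein arms in the cytoplasm, 5 were below 0 on both arrays, among them Lrrc6 at −0.16 ± 0.01. Of 7 dynein arm genes, 4 were below 0, and of 5 doublet proteins 3, among them Cfap52 at −0.23 ± 0.04. The RFX factors measured, Rfx2 and Rfx3, lay at 0.01 ± 0.12 and 0.00 ± 0.01. The motile cilia median of the wider list was thus nearer to 0 than that of the members.

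**Figure D4:**
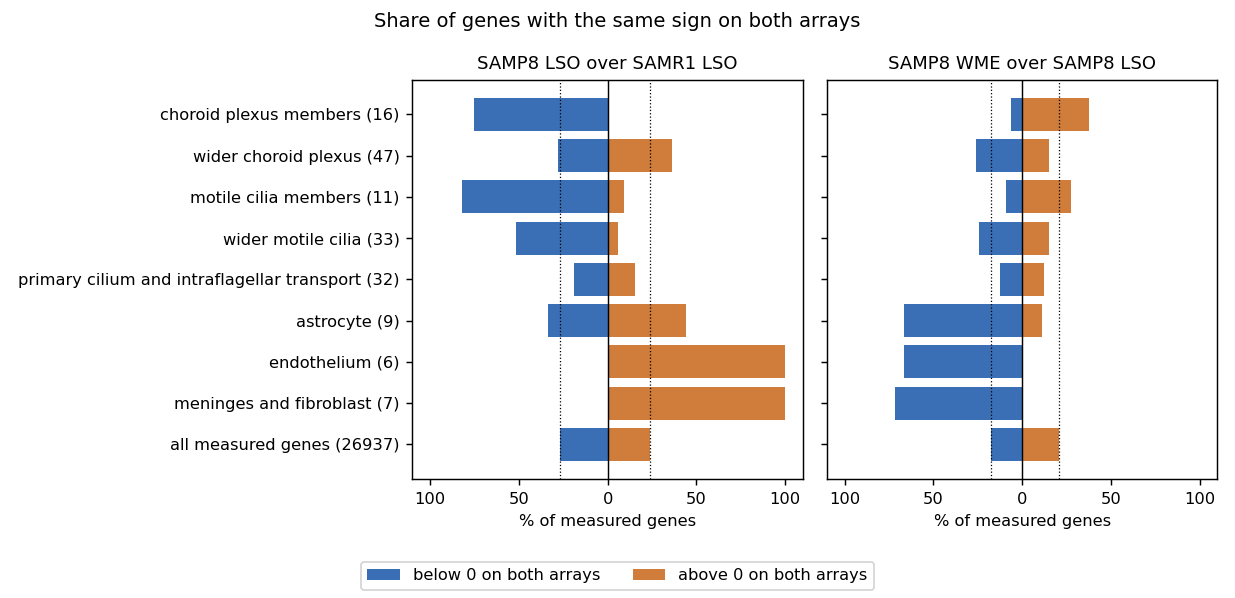
Percentage of the measured genes of each list that lay below 0 (to the left) or above 0 (to the right) on both arrays, for the strain comparison and the diet comparison. The number in parentheses is the count measured in the strain comparison, and dotted lines mark the shares over all measured genes. In the strain comparison 75% of the choroid plexus members and 81.8% of the motile cilia members lie to the left, against 26.7% of all genes.

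Genes of other cells moved in the strain comparison too. All 7 genes of meninges and fibroblasts were higher in SAMP8 on both arrays (median 0.59), and Col1a1, Col1a2 and Ogn were called, at 0.86 ± 0.01, 0.70 ± 0.06 and 0.64 ± 0.05. Their summed signal was 26131 to 26429 in SAMP8 and 18131 to 18794 in SAMR1, with 0 of 7 below background in either RNA. All 6 endothelial genes were higher as well (median 0.40, summed signal 20285 to 22943 against 15806 to 16782). Kidney transcripts went the other way, with 5 of 9 below 0 on both arrays and Kap and Cyp4b1 called lower (−3.00 ± 0.07 and −0.89 ± 0.08). Their summed signal was 6309 to 7479 in SAMP8 and 7549 to 8498 in SAMR1, and Slc12a3 was not above background in either RNA. Of the choroid plexus genes, 7 were set apart as also known in kidney tubule (Kl, Folr1, Cldn2, Clic6, Aqp1, Prlr and Ace). The median of the other 9 was −0.170, with 7 of 9 below 0 on both arrays. This split was made by hand, and kidney expression of the other 9, Sostdc1 and Calml4 among them, was not checked. The part of meningeal and endothelial RNA in these results was not tested.

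The second comparison set the WME diet against the LSO diet within SAMP8. No member reached 1.5-fold on both arrays in either direction, where 0.0563% of 26661 measured genes and transcripts were called higher and 0.03% lower. Of the 29 members, 9 lay above 0 on both arrays, 3 below 0 and 17 changed sign. Of all measured genes, 20.5% were above 0 and 17.6% below 0 on both arrays. Beyond 0.098, 4 members were higher with WME, all of the choroid plexus (Cldn2, Aqp1, Kl and Sostdc1), and 0 were lower, where 6.21% and 6.52% of all genes were. The SAMP8 LSO group is the numerator of the strain ratio and the denominator of the diet ratio, so the comparisons share it, and their values are given side by side without a test of how they relate.

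Cldn2 had the diet ratio largest in size among the members after loess. Its log2 levels were 8.35 with WME and 8.12 with LSO on array 1, and 8.39 and 8.13 on array 2, so the WME RNA read higher in both dye orientations. The ratio was 0.24 ± 0.02 (1.18-fold) and 0.378 from the processed signals, and its strain ratio was −0.15 ± 0.06. Kl had levels of 11.03 against 10.84 on array 1 and 10.99 against 10.89 on array 2, a ratio of 0.15 ± 0.07. With median centring Kl stood at 0.300, above Cldn2 at 0.243. Aqp1 had levels of 10.56 with WME and 10.21 with LSO on array 1, but 10.38 and 10.40 on array 2. Its mean was 0.16 ± 0.26, with the arrays on different sides of 0. The strain ratio of Aqp1 was likewise higher with the numerator RNA in Cy5 than in Cy3 (−0.33 and −0.76).

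Ttr showed the same split, with 12.46 against 12.32 on array 1 and 12.40 against 12.43 on array 2 (0.06 ± 0.13). Sostdc1, Enpp2, Clic6 and Kcne2 were also above 0 on array 1 and below 0 on array 2, with means between 0.05 and 0.11, and Folr1 did the reverse (0.10 ± 0.18). Steap1 stood at 0.05 ± 0.0024, and its second probe at 0.09 ± 0.0027. Calml4, Ace and Prlr lay between 0.03 and 0.07, and Otx2, F5 and Lbp between −0.03 and −0.01. The second probes of Folr1, Clic6 and Ace gave −0.0048 ± 0.10, 0.01 ± 0.21 and 0.05 ± 0.08. The choroid plexus median was 0.056, with 0.129 on array 1 and 0.00043 on array 2, against 0.0037 over all genes. With median centring in place of loess, an intensity-dependent correction, it was 0.212.

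The motile cilia genes were nearer to 0 with diet, at a median of 0.022 and between −0.06 and 0.08. Morn2, lower in SAMP8 than in SAMR1, had diet levels of 8.50 with WME and 8.41 with LSO on array 1 and of 8.57 and 8.50 on array 2, a ratio of 0.08 ± 0.01. Dynlrb2 stood at 0.02 ± 0.05 (second probe −0.01 ± 0.21), Tekt4 at 0.06 ± 0.08, Rsph1 at 0.03 ± 0.00043 and Foxj1 at −0.05 ± 0.19. Tekt1 was the motile cilia member below 0 on both arrays, at −0.06 ± 0.02 (second probe 0.01 ± 0.04). Rarres2 lay at −0.07 ± 0.06 but at 0.108 with median centring, and the 3 Mia probes lay between −0.04 and 0.01. The choroid plexus median minus the motile cilia median was 0.087 on array 1 and −0.016 on array 2.

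Kidney transcripts were higher with WME, with 7 of 10 above 0 on both arrays. Kap, Cyp4b1 and Slc34a1 were called, at 4.44 ± 0.92, 1.71 ± 0.53 and 1.21 ± 0.59. Their summed signal was 11550 to 12514 with WME and 6906 to 7532 with LSO, and Umod and Slc12a3 were not above background in LSO. The 7 choroid plexus genes set apart for kidney tubule, among them Cldn2, Kl and Aqp1, had a diet median of 0.098 with 4 of 7 above 0 on both arrays. The other 9, Sostdc1 among them, had a median of 0.053 with 2 of 9, and their kidney expression was not checked. The part of kidney RNA in the values of Cldn2, Kl, Aqp1 and Sostdc1 was not tested. Genes of some other cells lay lower with WME, where 17.6% of all measured genes were below 0 on both arrays. Of meninges and fibroblasts, 5 of 7 were below 0 on both arrays (median −0.160, summed signal 24475 to 25673 with WME and 26591 to 26597 with LSO). So were 4 of 6 of endothelium (median −0.124, 18140 to 19229 and 19688 to 22690) and 6 of 9 of astrocytes (median −0.108). Other lists differed. Of 7 neuron genes, 1 was above 0 and 0 below 0 on both arrays (median 0.051). Of 7 genes of striatal projection neurons, 2 were above and 0 below (median −0.033). Of 8 oligodendrocyte genes, 0 were above and 1 below (median −0.038). Of 5 pituitary genes, 4 were above and 0 below. Pomc, of the pituitary list, was called higher at 1.76 ± 0.15. The part of these cells in the members' diet values was not tested. The wider choroid plexus list lay at −0.015 (7 above and 12 below 0 on both arrays, of 46) and the wider motile cilia list at −0.0068 (5 above and 8 below, of 33).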

How the data were processed

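The deposited scanner files hold spot intensities from Agilent Feature Extraction (version 11.0.1.1 in the submitters' processing notes; named likewise per the file headers), with log10 ratios of processed signals that were not used here. The authors' deposited series table holds log2 ratios, equal to log2 of red over green processed signal. On each array 43379 probe spots were read; 81.4% to 85.6% were well above background and 0 were saturated, and all 4 arrays lay on 1 slide. Median intensities were corrected with normexp, whose offset of 50 draws dim ratios towards 0, and normalized by loess in limma 3.58.1 (R 4.3.3). Spots flagged as outliers (105 to 123 an array) were left out, spots of a probe were averaged and dye-swapped ratios turned. Probes were named through RefSeq accessions (GRCm38.p6, names only; 23374 of 41174 matched), and the brightest probe stood for a gene measured in at least 1 RNA on both arrays. With 1 RNA a group, a call meant 1.5-fold in 1 direction on both arrays. In simulated strain arrays, 50 of 50 spots changed 2-fold and 9 of 50 changed 1.5-fold were called. Of 50 spots changed 1.2-fold, 48 had the right sign on both arrays. The changed spots were drawn from brighter spots only, so these rates do not cover dim members such as F5 and Dnah5. Members and lists were chosen with earlier results of these data known. All members were named; of other lists the called genes, up to 4, or else up to 3 largest in size. Car2, Car12, Car14, Wdr63, Wdr78, Lrrc6, Cfap52, Rfx2, Rfx3 and the genes beside Morn2 were named after their values were seen. The closing section gives the alternatives tried.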

Additional observations from a re-analysis of the deposited data

How the results depend on the processing

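Morn2 was called in the strain comparison under every alternative run, and no member was called for diet under any of them. At 1.2-fold, 3 members were called for strain. With processed signals or the series table, which gave the same values, the wider choroid plexus and motile cilia medians for strain were −0.039 and −0.095 (all genes −0.018). With median centring the diet medians were 0.212 for choroid plexus, 0.054 for motile cilia, 0.106 and 0.065 for the wider lists and 0.158 for the difference (all genes 0.066). The cause was not tested. Signs of single members were kept in 28 of 29 for strain with processed signals, and for diet in 25 with processed signals and 24 with median centring. On 1 array at a time, the strain medians ranged from −0.188 to −0.098 (choroid plexus), −0.234 to −0.144 (motile cilia), 0.0080 to 0.040 and −0.078 to −0.028 (wider lists) and −0.044 to 0.136 (difference), with 1 to 2 members called, Aqp1 being added on array 4. The diet medians ranged from 0.00043 to 0.129, 0.017 to 0.042, −0.022 to −0.00099, −0.018 to −0.0054 and −0.016 to 0.087, with 0 called. No paired analysis was possible because each group has 1 RNA and the dye orientations are not separate samples. One probe of Dnah5 was not well above background.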

Other observations

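The genes of primary cilia and intraflagellar transport are used by most brain cells and are not specific to motile cilia. Of 32 measured, 6 were below 0 and 5 above 0 on both arrays of the strain comparison, with a median of −0.014 and 0 called. The ratios largest in size were 0.15 ± 0.23 for Ttc8, a subunit of the BBSome, −0.15 ± 0.03 for Adcy3, the adenylyl cyclase of neuronal cilia, and 0.13 ± 0.0028 for Ift122. In the diet comparison 4 were above 0 and 4 below 0 on both arrays.

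In the RefSeq gene order, Gemin6, a protein of the SMN complex, lies beyond Dhx57 and Ttc39d from Morn2 on chromosome 17. It was also called lower in SAMP8 than in SAMR1, with 1 probe at −0.93 ± 0.08. Dhx57, next to Morn2 on that side, stood at −0.05 ± 0.14. Sos1, on the other side, stood at −0.10 ± 0.05, and Srsf7, beyond Gemin6, at 0.23 ± 0.11. In the diet comparison Gemin6 lay at 0.02 ± 0.04.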
